A study of Mus musculus with 16 samples.

Results

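The regions described here carried the histone mark H3K27ac early in T helper 2 (Th2) culture and not late in it, in cells with and without the transcription factor Bcl11b. They were chosen by the measured H3K27ac islands themselves. The islands of 8 libraries, 4 early and 4 late, were merged where they overlapped or touched, and a merged region was kept when all 4 early lists had an island in it and no late list did. The rule found 458 regions among 35909 merged regions, which together spanned 1.61 Mb. For comparison, 18384 regions had an island in all 8 lists, and 591 showed the opposite pattern, with an island in all 4 late lists and in no early list. These are called the kept and the gained regions below.

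Acetylation of H3K27 is placed on nucleosomes at active promoters and enhancers, and it is removed when such elements are switched off. DNase-seq reads where DNase I can cut, which marks the open, nucleosome-poor DNA at the core of such elements. When a naive CD4 T cell is activated and becomes a Th2 cell, which makes the cytokines IL-4, IL-5 and IL-13, elements used by the resting or newly activated cell can close while lineage elements open. Bcl11b is a zinc-finger transcription factor needed for T cell identity.

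All cells came from mice on a C57BL/6 background that carried floxed Bcl11b and the tamoxifen-inducible CreERT2, the WT cultures included. Early WT cells were grown for 4 days under Th2 conditions without 4-OHT, the drug that activates this Cre, and early KO cells for the same 4 days with it. Late cells were grown for 4 days under Th2 conditions, rested for 1 day in medium with IL-2 and grown for 4 more days under Th2 conditions, without 4-OHT (late WT) or with 4-OHT in the second culture only (late KO). Genotype and exposure to 4-OHT therefore cannot be told apart, and neither can stage and the moment at which Bcl11b was deleted in the KO cells. By their labels the cells were naive when isolated, yet the stated sort was for high CD44, which activated cells carry. Each assay had 2 libraries per group, which the labels do not place in separate animals or cultures. The p-values thus weigh a difference only against the spread among these libraries, which may be technical. How many cells in a culture carried a mark and how strongly each cell carried it cannot be told apart in bulk libraries.

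Between 26548 and 32112 islands made up each H3K27ac list, over 100.9 to 111.7 Mb of the mouse build mm9. The DNase lists were less even, with 17397 to 39736 islands over 25.9 to 66.8 Mb. The late KO lists were the shortest of these (18812 and 17397 islands), followed by that of early KO replicate 1 (24286). The lists give no read counts, so the depth behind an island is unknown, and a missing island is only one that a list lacks. The gene tables at hand were of another build, so regions are named by position and the labelled cell type was not checked against marker genes. H3K27ac lists of the same group shared 70.3% to 78.0% of the length that either covered, lists of the same stage and different genotypes 60.9% to 71.6%, and lists of different stages 57.3% to 69.6%. The early KO lists shared more with the late KO lists (68.3% to 69.6%) than with the early WT lists (60.9% to 63.9%).

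The lost regions were weak H3K27ac regions of ordinary width. Their width ranged from 1.0 to 13.6 kb, with a median of 3.0 kb against 3.2 kb for all merged regions, 2.8 kb for the gained and 4.6 kb for the kept regions. Strength was read from the authors' island score, used only as a rank within each list. The mean percentile of the strongest island over the 4 early lists had a median of 22.7 in the lost regions (range 4.6 to 60.6) and of 65.6 in the kept regions. Of the 101 regions present in all 4 early lists with a mean percentile up to 10, 27 were lost, or 26.73%. The share fell to 9.2% between percentiles 20 and 30 (167 of 1816 regions) and to 0.41% between 50 and 60 (10 of 2424). A single lost region lay above percentile 60, and none above 70. These values belong to the measure that chose the regions and are a description, with no test.

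**Figure D1:**
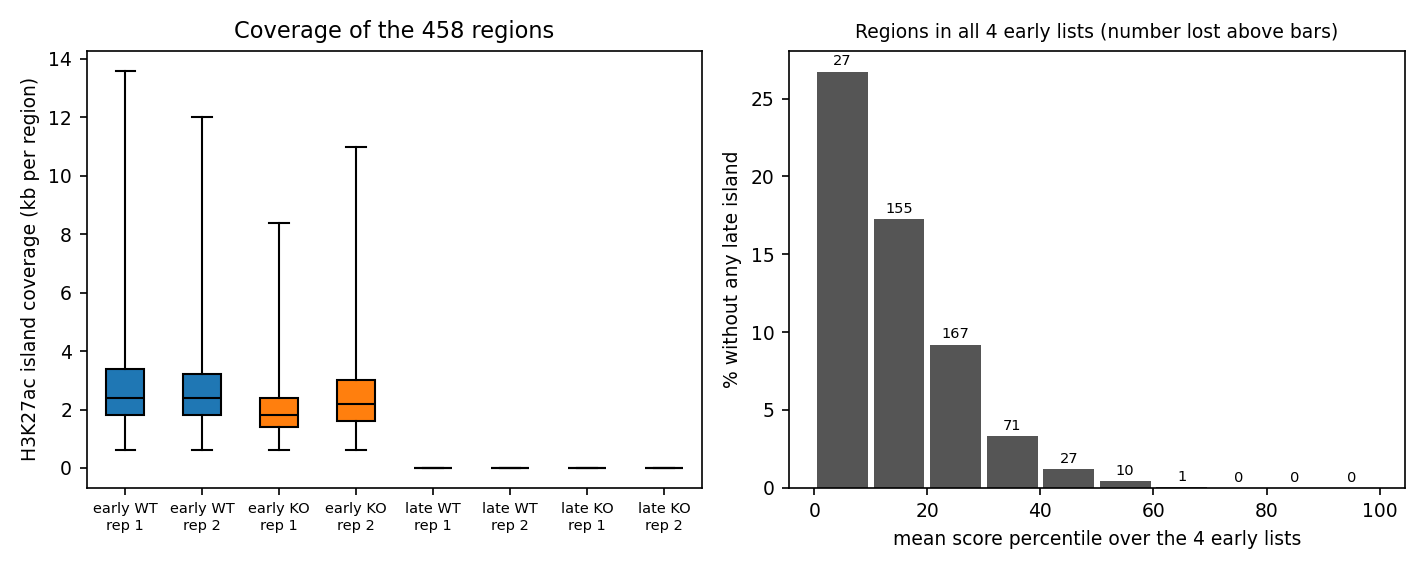
Left, kb of each of the 458 lost regions covered by H3K27ac islands in each library (line, median; box, quartiles; whiskers, lowest and highest region), with medians between 1.8 and 2.4 kb in the early libraries and 0 in the late ones by the rule. Right, share of the regions present in all 4 early lists that had no late island, by mean score percentile over the 4 early lists (numbers lost above the bars), falling from 26.73% in the lowest band to none above percentile 70.

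In the early libraries the lost regions were covered by H3K27ac islands over 2.76 kb on average in WT replicate 1, 2.65 kb in WT replicate 2, 2.08 kb in KO replicate 1 and 2.46 kb in KO replicate 2. Both WT values thus lay above both KO values. The median share of a region that was covered was 81.2% and 80.0% in WT and 62.5% and 76.3% in KO. The plot of coverage by library shows the same order, with wide and overlapping spreads across regions.

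Regions that just missed the rule were weighted toward single libraries. Another 321 regions had an island in all 4 early lists and in 1 late list, and in 218 of them that list was late WT replicate 2, where the median island length within the region was 1.4 kb and the median percentile 8.8. Late KO replicate 2 held 66 of them, late KO replicate 1 held 29 and late WT replicate 1 held 8. On the other side, 422 regions had no late island and an island in 3 early lists. The missing early list was WT replicate 1 in 178, KO replicate 2 in 134, KO replicate 1 in 62 and WT replicate 2 in 48. The number of lost regions without late WT replicate 2 was 676, and without early WT replicate 1 it was 652.

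The 8 lost regions with the highest early percentile show what the strongest losses looked like. The first was chr8:131047201-131051400 (mm9, 4.2 kb), at percentile 60.6, with 3.8 and 3.8 kb of H3K27ac in the early WT libraries and 4.0 and 4.2 kb in the early KO libraries. Its neighbour chr8:131025601-131037000, at percentile 58.6, had 8.2 and 7.2 kb in WT and 8.4 and 11.0 kb in KO. In both, each KO library was above each WT library, and every late library was at 0 by the rule. The second by percentile, chr11:31909201-31915800 (59.9), had 4.8 and 6.6 kb in WT and 4.6 and 6.2 kb in KO. The third, chr10:42612801-42623200 (59.0), had 7.6 and 6.0 kb in WT and 6.4 and 6.2 kb in KO. In these the genotypes overlapped. The other 4, at percentiles 54.4 to 55.4, were chr1:38832801-38836000, chr15:64040401-64046400, chr12:15934601-15941800 and chr19:11589801-11597200, with 2.4 to 7.4 kb per early library. All 11 lost regions above percentile 50 had a DNase island in at least 1 library, and 4 of them had one in a late library.

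The 5 widest lost regions included chr8:131025601-131037000 and chr10:42612801-42623200, already given, which were 11.4 and 10.4 kb wide. The widest was chr3:83788001-83801600 (13.6 kb), with 13.6 and 8.2 kb of H3K27ac in early WT and 3.8 and 3.0 kb in early KO cells. Both WT libraries were above both KO libraries there, and the log2 KO minus WT difference of -1.51 did not pass the test described below (limma, adjusted p = 0.063). The next, chr9:59758401-59771800 (13.4 kb), had 12.6 and 12.0 kb in WT and 7.4 and 9.6 kb in KO (limma, adjusted p = 0.0526). chr16:23298601-23309400 (10.8 kb) had 6.4 and 8.0 kb in WT and 6.0 and 4.4 kb in KO.

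Lost regions were spread over 20 chromosomes. Set against the kept regions, they were most frequent on chromosome 1 (41 regions, 37.5 per 1000 kept regions), chromosome 16 (25, or 36.8) and chromosome 4 (39, or 35.1), and least frequent on the X chromosome (7, or 15.3), chromosome 7 (19, or 15.4) and chromosome 11 (24, or 16.3). Counts this small per chromosome were not tested. Many losses lay near H3K27ac that was present late. The median distance to the nearest island of any late list was 9.6 kb, and 234 regions (51.1%) lay within 10 kb of one. Another 26 (5.7%) were over 100 kb from any late island. The farthest of these, chosen after its value was seen, was chr5:132789801-132792200, at 1782.6 kb. Gained regions were placed much alike, with 44.0% within 10 kb of an early island and 7.1% over 100 kb from any. For the lost regions the median distance to the nearest kept region was 16.6 kb, against 11.8 kb between neighbouring kept regions.

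Some losses lay close together. Joined where the next lost region lay within 50 kb, 74 of the 458 regions (16.2%) formed 32 chains of at least 2, made up of 23 pairs, 8 chains of 3 and 1 chain of 4. Of the 591 gained regions, 133 (22.5%) lay in such chains. The chain of 4, chr19:11574401-11597200 (22.8 kb), held 12.2 and 13.2 kb of H3K27ac in early WT and 13.2 and 14.8 kb in early KO cells. It held 0 kb in all 4 late libraries over its whole span, gaps included. Its DNase coverage was 2.6 and 3.8 kb in early WT cells, 0.6 and 0.8 kb in early KO cells, 0.8 and 0.8 kb in late WT cells and 0 in both late KO libraries. Here DNase islands were longer in WT than in KO at each stage.

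The chain chr8:131025601-131088400 (62.8 kb), which holds both chr8 regions above, had 24.4 and 26.6 kb of H3K27ac in early WT and 35.8 and 39.4 kb in early KO cells, gaps included. Its 3 lost regions together were 18.0 kb wide. Part of this early coverage thus lay in the 2 other regions of the span. Late WT was at 0 and late KO at 3.0 and 2.8 kb, from islands between the lost regions. DNase coverage over the same span was 4.0 and 7.0 kb in early WT cells, 3.8 and 5.6 kb in early KO cells, 0 and 0.6 kb in late WT cells and 0 in late KO. Over the whole span, early H3K27ac was thus longer in KO than in WT in both libraries, which is not a value of the lost regions alone. Early DNase overlapped between genotypes, and almost all DNase coverage was gone late in both. The chain chr10:42586801-42655600 kept more: H3K27ac over its 68.8 kb was 17.6 and 17.2 kb in early WT cells, 17.6 and 15.4 kb in early KO cells, 3.0 and 2.0 kb in late WT cells and 2.6 and 2.0 kb in late KO cells. The chains chr4:100864001-100910200 and chr8:74790601-74828000 likewise kept some H3K27ac between their lost regions, with 1.2 to 4.4 kb and 0 to 3.8 kb per late library. Per early library their spans held 13.6 to 17.4 kb and 8.6 to 18.4 kb, other regions included.

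The loss was not limited to the regions themselves. In the 50 kb on either side of a lost region, islands covered 11.97, 11.58, 11.30 and 11.85 kb on average in early WT replicates 1 and 2 and early KO replicates 1 and 2. In the late libraries, in the same order, they covered 7.85, 8.04, 8.91 and 8.10 kb. The early and late libraries did not overlap (11.68 ± 0.30 kb against 8.22 ± 0.47 kb, SD, n = 4 each). The flanks of kept regions held 12.94 ± 0.40 kb early and 12.64 ± 0.54 kb late, and those of gained regions 9.34 ± 0.46 kb early and 13.29 ± 0.67 kb late. Flank coverage in all 4 late libraries lay below that in all 4 early ones at 147 of the 458 lost regions (32.1%), where 10.2% of all merged regions did so. The opposite held at 4 lost regions (0.9%), against a background of 8.73%. Flanks of neighbouring lost regions overlap, and the flanks use the same libraries and the same contrast as the rule, so these values are a description with no test.

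**Figure D2:**
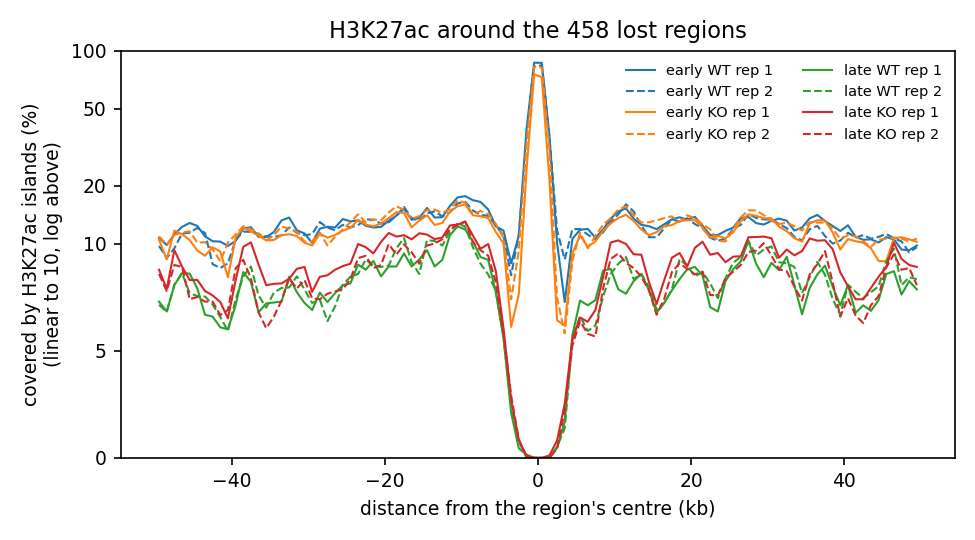
Share of positions covered by H3K27ac islands by distance from the centre of the 458 lost regions, 1 line per library, with an axis that is linear to 10% and logarithmic above. The 4 late libraries run below the 4 early ones over most of the 50 kb on either side, where mean coverage per region was 8.22 kb late and 11.68 kb early.

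DNase accessibility was not used to choose the regions. A DNase island was present in 49.1% of the 458 lost regions in early WT replicate 1 (225 regions), 56.3% in WT replicate 2 (258), 23.1% in early KO replicate 1 (106) and 47.4% in KO replicate 2 (217). Late, the shares were 11.6% (53) and 23.6% (108) in WT and 3.5% (16) in each KO library. Early KO replicate 1, whose list was short, lay just below late WT replicate 2, so the stages overlapped. The other early libraries were above every late library. Over libraries the share was 44.0 ± 14.4% early and 10.5 ± 9.5% late (SD, n = 4 each). These are levels in the libraries, each list as deposited.

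Most regions had DNase islands early only, or none. No DNase list had an island in 153 lost regions (33.4%). At least 1 early list and no late list had one in 194 (42.4%), of which 25 were open in all 4 early lists. Early and late islands were both present in 107 (23.4%), and late islands alone in 4 (0.9%). Among kept regions 4.3% were open in at least 1 early list and in no late list, among gained regions 3.9%, and among the kept regions of like early percentile described below 10.2%. More early than late lists held an island in 284 lost regions (62.0%), in 31.2% of the kept regions and in 49.1% of those of like percentile. More late than early lists did so in 5 lost regions (1.1%), 3.2% of the kept and 10.9% of those of like percentile.

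**Figure D3:**
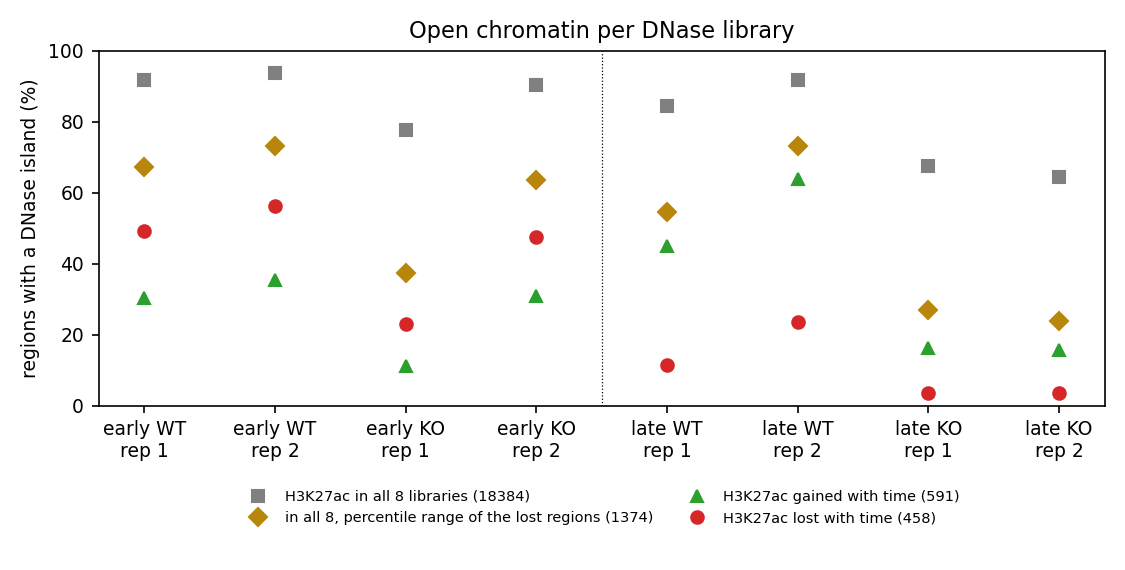
Share of regions with a DNase island in each DNase library, for the lost, kept and gained regions and for the kept regions with an early H3K27ac percentile like that of the lost regions, 1 point per library. Lost regions fall from 23.1% to 56.3% in the early libraries to 3.5% to 23.6% in the late ones, while gained regions rise in WT.

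The kept regions were open much more often and changed less, with a DNase island in 88.3 ± 7.2% early and 77.0 ± 13.1% late (SD, n = 4 each). Since lost regions were weak, the 1374 kept regions with a mean early percentile between 16.3 and 29.8, the quartiles of the lost regions, were also taken, a comparison chosen after seeing the data. Their shares were 67.3% and 73.1% in early WT, 37.5% and 63.5% in early KO, 54.7% and 73.1% in late WT and 27.1% and 23.9% in late KO. Late as a percentage of early, the WT mean was 91.0% in these regions and 33.3% in the lost regions. In KO it was 50.6% and 9.9%. The late KO lists were short, and the mean KO share fell with time in each of these sets and in the gained regions. Gained regions went from 30.3% and 35.4% to 45.0% and 64.0% in WT, and from 11.2% and 30.8% to 16.2% and 15.6% in KO.

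List length moved with these shares, so the lists were also compared at equal length, with the 17397 islands of highest score from each. A DNase island was then present in 13.5% and 13.5% of lost regions in early WT, 10.3% and 11.1% in early KO, 2.6% and 4.1% in late WT and 2.6% and 3.5% in late KO. Early and late libraries no longer overlapped, and the genotypes lay closer together. Kept regions hardly moved at equal length (66.2% to 70.7% early, 64.3% to 68.8% late), and gained regions went from 4.6% to 5.1% early to 14.0% to 20.8% late. These are all kept regions, which had stronger early H3K27ac than the lost ones. Those of like percentile were not compared at equal length.

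The open element lay at the middle of the region. At the centre of the lost regions, DNase islands covered 27.4%, 37.2%, 13.3% and 28.9% of positions in early WT replicates 1 and 2 and early KO replicates 1 and 2. The late values in the same order were 7.6%, 12.9%, 2.0% and 3.0%. At 4.9 kb from the centre the early libraries were at 2.8% to 6.2% and the late ones at 2.4% to 3.8%. The centre in late KO was close to the level at that distance. It still stood above its nearer surroundings: 1500 bp toward higher coordinates, late KO replicates 1 and 2 were at 0.33% and 0.55%.

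**Figure D4:**
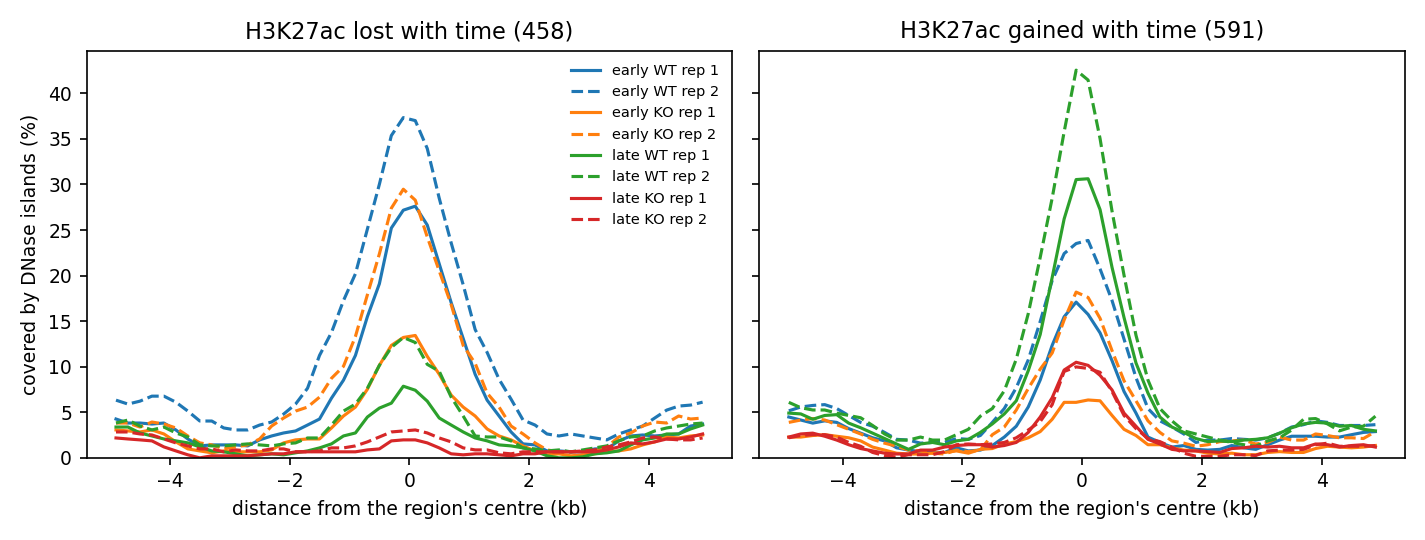
Share of positions covered by DNase islands by distance from the region's centre, 1 line per library, for the lost regions (left) and the gained regions (right). At the centre of lost regions the early libraries reach 13.3% to 37.2% and the late ones 2.0% to 12.9%, while in gained regions the late WT libraries are the highest.

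With the genotypes pooled, DNase loss was graded with H3K27ac loss. Among regions with an island in all 4 early H3K27ac lists, the late DNase share as a percentage of the early one was 23.9% where no late H3K27ac list had an island, 35.3% where 1 did (321 regions), 40.1% where 2 did (518), 52.7% where 3 did (569) and 87.1% where all 4 did. The early DNase share rose along the same series, from 44.0 ± 14.4% to 47.8 ± 15.6%, 50.6 ± 15.2%, 54.9 ± 13.8% and 88.3 ± 7.2% (SD, n = 4 each). The median early H3K27ac percentile rose too, from 22.7 to 25.5, 27.9, 29.2 and 65.6. Its part in the DNase values was not tested, and neighbouring steps differed by less than the spread between libraries up to 3 late lists. In the fit described below, the median log2 DNase change in WT was -1.06, -0.79, -0.7, -0.36 and -0.02 along the series. In KO it was -0.74, -0.65, -0.57, -0.65 and -0.16, with no steady order up to 3 late lists. These medians cover only the regions with a DNase island in at least 2 libraries (248, 186, 334, 381 and 17402 along the series). A region that passed only through its early islands had to fall, so the medians are a description and no support for the grading.

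**Figure D5:**
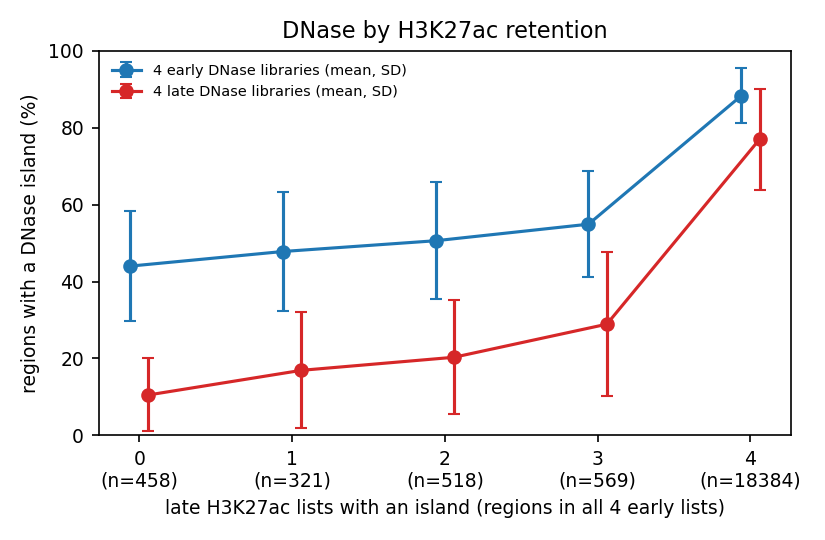
Share of regions with a DNase island, by the number of late H3K27ac lists with an island, for regions present in all 4 early lists (points, mean of 4 libraries; bars, SD; n, regions). Early shares lie between 44.0% and 54.9% for 0 to 3 late lists, while late shares go from 10.5% to 28.9%, and both are highest for the kept regions.

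Within the lost regions, those with stronger early H3K27ac were open more often. The 153 regions with the lowest percentiles (4.6 to 18.4) had a DNase island in 27.8 ± 9.7% early and 6.7 ± 6.9% late. The 152 in the middle were at 44.9 ± 15.7% and 11.7 ± 9.2%, and the 153 with the highest percentiles (27.7 to 60.6) at 59.3 ± 18.0% and 13.2 ± 12.6% (SD, n = 4 each). The early order held for the means, with spreads between libraries that overlapped from one step to the next. The highest group was also wider, with a median of 3.8 kb against 2.8 kb in the lowest.

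DNase coverage per region was then tested with limma over all merged regions, as log2(kb covered + 0.5), averaged over both genotypes. Regions needed a DNase island in at least 2 of the 8 libraries, which 248 of the 458 lost regions had and 210 did not. A region that passed only through its early islands had to differ, so the counts of tested regions are given as they are and not as support. Of the 248, 32 were lower late and 1 was higher at the adjusted threshold, where the background over all 25850 regions tested was 3.44% lower and 0.692% higher. At an unadjusted p under 0.05, 162 were lower and 1 was higher, where 4587 and 976 of all 25850 regions tested were. With no filter all 458 were tested, and 14 were lower and 1 higher, with a background of 0.852% and 0.0835%. The count of 32 rested on single libraries: it was 0 without early WT replicate 1, early WT replicate 2 or late WT replicate 1, 7 without late KO replicate 2, 13 without late KO replicate 1, 21 without late WT replicate 2 and 72 without early KO replicate 1. It was also 7 after quantile normalization and 14 with a replicate block.

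Of the 32 regions, 28 had an island in all 4 early DNase lists and 25 in no late one. These 25 passed the filter only through early islands, so they had to differ. The p-values of such regions, here and below, are given as values and are no support. The largest fall was at chr1:173911201-173915000, covered by DNase islands over 2.2 and 2.0 kb in early WT cells and 2.6 and 2.8 kb in early KO cells. All 4 late libraries were at 0 there, so early and late did not overlap (log2 difference -2.43, SE 0.22, limma adjusted p = 0.0151). A fitted difference against libraries at 0 depends on the 0.5 kb added and is no bound. H3K27ac at this region had covered 3.8 and 3.2 kb in early WT cells and 3.2 and 3.4 kb in early KO cells, nearly all of its 3.8 kb.

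The next falls had the same form. chr7:139555801-139559800 had 2.2 and 2.0 kb in early WT cells, 1.6 and 2.4 kb in early KO cells and 0 in all late libraries (-2.24, SE 0.22, adjusted p = 0.0151). chr2:117813001-117815800 had 1.6 and 2.4 kb in early WT cells, 1.2 and 2.4 kb in early KO cells and 0 late (-2.13, SE 0.24, adjusted p = 0.0151). This region stood alone, 120.6 kb from the nearest H3K27ac island of a late list. chr11:52153201-52156800 had 1.8 and 2.2 kb in early WT cells, 2.6 and 1.2 kb in early KO cells and a late island of 0.2 kb in WT replicate 2 only (-2.04, SE 0.30, adjusted p = 0.0227). It belongs to a chain of 3 lost regions, chr11:52126201-52156800. Over the chain's whole span H3K27ac covered 6.3 ± 0.42 kb in early WT cells and 10.5 ± 0.71 kb in early KO cells (SD, n = 2 each) and 0 kb late. The lost regions make up 8.6 kb of the span, which holds 1 other region. The early KO coverage thus lay partly outside the lost regions. chr1:163815001-163819400 had 1.8 and 2.4 kb in early WT cells, 1.2 and 1.4 kb in early KO cells and 0 late (-2.01, SE 0.21, adjusted p = 0.0151). In all 5 regions every early library was above every late one.

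Of the regions with the strongest early H3K27ac, chr11:31909201-31915800 fell as well, from 0.8 and 1.2 kb in early WT cells and 2.4 and 2.6 kb in early KO cells to 0 in all late libraries (-1.98, SE 0.22, limma adjusted p = 0.0151). The wide region chr16:23298601-23309400 went from 0.6, 1.6, 0.4 and 0.4 kb in the early libraries to 0 (-1.13, limma adjusted p = 0.0461). Both passed the filter only through early islands, so these calls are no support. Others of the regions with the strongest early H3K27ac did not pass the test. chr8:131025601-131037000 had a DNase island of 0.4 kb in each of the 4 early libraries and none late (-0.75, adjusted p = 0.0659). chr8:131047201-131051400 had 0.8 and 1.0 kb in early WT cells, 0 and 0.8 kb in early KO cells and none late (adjusted p = 0.0843). chr10:42612801-42623200 had 1.2, 2.6, 0.8 and 0.8 kb early and 3.0 and 0.4 kb in late WT cells, so that its highest library was a late one.

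One region was called higher late, and the call was not stable. At chr17:13733401-13739800, DNase islands covered 0 and 0 kb in early WT cells, 0.4 and 4.6 kb in early KO cells, 3.2 and 4.0 kb in late WT cells and 6.4 and 5.8 kb in late KO cells (2.42, SE 0.44, limma adjusted p = 0.0348). Early KO replicate 2 reached into the late range, and the other early libraries did not. Its H3K27ac had covered 5.2 and 4.8 kb in early WT cells and 3.6 and 5.2 kb in early KO cells, and no late list had an H3K27ac island there. No lost region was called higher with no centring, with the upper 50% of each DNase list, with equal DNase list lengths or with a replicate block. The same held when either early WT library or any late library was left out, while 1 region was called without either early KO library.

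Other lost regions stayed open. In 9, named after their values were seen, all 8 DNase lists had an island. At chr6:73159001-73161800 the early libraries had 0.8, 1.0, 0.8 and 0.8 kb and the late ones 0.8, 0.8, 1.0 and 0.8 kb (0.10, SE 0.21, limma adjusted p = 0.855). At chr4:32235001-32237800 they had 1.8, 1.8, 1.4 and 1.4 kb early and 1.4, 1.4, 1.0 and 1.8 kb late (-0.06, SE 0.21, adjusted p = 0.917). At chr1:38832801-38836000 they had 1.0, 2.2, 0.8 and 2.6 kb early and 0.8, 0.8, 0.6 and 1.6 kb late (-0.42, SE 0.33, adjusted p = 0.535). Early and late libraries overlapped in each, while H3K27ac islands were present in all early and in no late list.

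Taken by genotype, 37 of the 248 tested regions were lower late and 1 higher in WT (limma, background 2.45% and 0.843%), and 29 were lower and none higher in KO (background 5.18% and 0.275%). In both genotypes 11 were lower, a count for which no share over all regions was computed. The WT count was 0 without any 1 of the 4 WT libraries and without either late KO library, and 82 and 91 without early KO replicate 1 or 2. The KO count was 0 without early KO replicate 1, 2 to 9 without any other of the KO or early WT libraries, and 26 without either late WT library. The difference between the genotypes in the change with time was tested as an interaction. It passed in no lost region (smallest adjusted p = 0.0772), where the background of adjusted calls was 0% in both directions. At an unadjusted p under 0.05 were 63 lost regions, 23 negative and 40 positive. Over all 25850 regions tested, 2586 were negative and 1063 positive at that level. The interaction passed in 22 lost regions with no centring of libraries, in 19 with the upper 50% of each DNase list and in 5 with equal DNase list lengths. Shares over all regions were not computed for these settings.

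The late KO DNase lists were shorter (18812 and 17397 islands) than the late WT lists (27416 and 36963), and at equal length the late shares given above overlapped between genotypes. In the lists as deposited, both late WT lists held an island in 53 lost regions and both late KO lists in 10. In 29 regions (6.3%) all 4 early lists and both late WT lists held an island and no late KO list did, while the mirror pattern, with both late KO and no late WT list, was found in none. The first pattern was found in 7.5% of the kept regions and in 9.1% of those of like percentile. It needs an island in all 4 early lists, which 19.0% of the lost, 76.7% of the kept and 35.0% of the like-percentile regions had. Among regions with all 4 early lists, it held in 29 of 87 lost, 1383 of 14099 kept and 125 of 481 like-percentile regions. The largest late difference between genotypes was at chr9:122996001-122999000, named after its values were seen, with 1.4 and 1.6 kb in early WT cells, 1.0 and 1.4 kb in early KO cells, 2.2 and 1.2 kb in late WT cells and 0 in both late KO libraries. It was the one lost region called between genotypes in the late cells (log2 KO minus WT -1.76, SE 0.35, limma adjusted p = 0.0356), where the background was 4.39% lower and 0.557% higher in KO. That count went from 0 to 13 when single libraries were left out, 13 without early KO replicate 2, 10 without early KO replicate 1 and 2 without late KO replicate 1, and 0 without any other.

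In early cells 11 lost regions had less DNase coverage in KO than in WT and 6 had more (limma, background 1.36% and 1.02%). A region that passed the filter through a single genotype had to differ, so these counts are not given as support. The largest of the first kind, chr13:24693401-24697800, had 2.2 and 4.2 kb in early WT cells, 0 and 0.2 kb in early KO cells and 0 in every late library (-2.34, SE 0.32, adjusted p = 0.0297). The largest of the second, chr13:28592601-28595000, had 0 and 0 kb in early WT cells, 0.8 and 2.4 kb in early KO cells and 0 late (2.21, SE 0.35). Next came chr6:5502401-5504600, with 0 and 0 kb in early WT cells, 1.6 and 1.2 kb in early KO cells and 0 late (2.17, SE 0.30). Each of these regions passed the filter only through the early KO libraries, so it had to differ and its call is no support. Centring alone gave a difference of 0.25 to a region at 0 in all lists. The 3 regions given here, named after their values were seen, had early H3K27ac in both genotypes and a DNase island in the early cells almost only of one. All 11 regions lower in KO were also called lower with time in WT, a comparison that shares the early WT libraries. None of the 17 calls was left without either early WT library, either early KO library, late WT replicate 1 or either late KO library, and 16 regions were called without late WT replicate 2.

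Early H3K27ac was also compared between genotypes within the lost regions. The rule treated WT and KO alike but required an island in each of these 4 early libraries, so the overlap counts and medians below are a description. Both early WT libraries had more H3K27ac coverage than both early KO libraries in 139 lost regions (30.3%), against 19.8% of the 20250 regions present in all 4 early lists. The reverse held in 46 of the 458, against 21.2%. In a limma fit of the 4 early libraries over 27686 regions, all 458 lost regions were tested, and 15 were lower and 1 was higher in KO. The background was 6.26% lower and 13.6% higher over all regions tested, many of them absent from an early list. Among the kept regions 1.88% were lower and 2.31% higher, and among the lost regions 3.28% and 0.218%. Their median log2 KO minus WT difference was -0.16, against 0.05 over all regions tested and 0.01 in the kept regions. Regions with all 4 early lists and some late lists had values like those of the lost regions, with a median of -0.18 and 3.43% lower where 1 late list had an island, and -0.16 and 4.44% where 2 did. The number lower was 0 without early KO replicate 1 or 2 and 23 without early WT replicate 2, and it was 30 after quantile normalization, 54 with equal list lengths and 7 with a replicate block. Early KO replicate 1 had the most and the shortest islands of the 4 lists (32112, median 2.4 kb), and its part in these differences was not tested.

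The largest difference was at chr4:32521801-32530400 (8.6 kb), with 7.0 and 7.2 kb of H3K27ac in early WT and 2.2 and 1.8 kb in early KO cells (-1.61, SE 0.18, limma adjusted p = 0.0101). No DNase list had an island there. At chr13:38138601-38147000 the values were 4.4 and 6.0 kb in WT and 1.4 and 1.6 kb in KO (-1.50, SE 0.19, adjusted p = 0.0144). At chr10:57874001-57882600 they were 8.6 and 5.6 kb in WT and 2.4 and 2.4 kb in KO (-1.36, SE 0.25, adjusted p = 0.0392). In each of these the early WT coverage was over 2 kb longer than that of either KO library. At chr13:36880401-36886000 they were 4.0 and 4.8 kb in WT and 1.4 and 1.8 kb in KO (-1.22, SE 0.15, adjusted p = 0.0133). At chr2:181062601-181068200 they were 4.6 and 3.6 kb in WT and 1.2 and 2.0 kb in KO (-1.15, SE 0.22, adjusted p = 0.0476). The one region with more H3K27ac in early KO, chr10:42652601-42655600, had 1.4 and 1.4 kb in WT and 2.8 and 3.0 kb in KO (0.84, SE 0.13, adjusted p = 0.0252). It is the last region of the chr10 chain given above, and its DNase coverage went from 0.6, 0.6, 0.6 and 0.4 kb early to 0 in all late libraries, with no gap between the early genotypes.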

How the data were processed

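H3K27ac ChIP-seq and DNase-seq were measured in 16 libraries, 2 per assay, stage and genotype, grouped by the labels. The authors processed reads with CASAVA 2.18, Bowtie2 and SICER 1.1 on mm9, per the submitters' processing notes. The deposited lists, 1 per library, give each island's position and a score, per the values in the files. SICER joins enriched 200-bp windows across gaps. Control libraries, duplicate rates and read totals are not given in the sources used here. The score served only to rank islands within a list (percentile, highest island per region).

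Merged regions and kb covered were computed with Python 3.11.15 (numpy 2.4.6, pandas 2.3.3). Coverage was fitted as log2(kb + 0.5) with limma 3.58.1 in R 4.3.3, over all merged regions covered in at least 2 libraries of the fit. Libraries were centred on the median of regions covered in all of them. The test was the moderated one with trend, and calls were made at a Benjamini-Hochberg adjusted p under 0.05. The 8 DNase libraries shared 1 fit, and the 4 early H3K27ac libraries another. Early against late H3K27ac chose the regions and was not tested.

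Regions named were the 8 with the highest early percentile, the 5 with the largest called DNase fall and rise, the 5 with the largest called early H3K27ac difference in each direction, the 5 widest and the 5 chains with most regions (ties by early H3K27ac coverage). Others are said to be named after their values were seen. The regions and lists were chosen with earlier results of these data known. Genes, sequences and motifs were not analysed here. Tested on simulated data with 200 changed regions, the DNase fit (25850 regions) found 0% at a log2 change of -1 and 54% at -2, with 3 unchanged regions called. The H3K27ac fit (27686 regions) found 0% at either size. The simulation changed only 200 regions and took each region's own spread over few libraries as its noise. In the data the same H3K27ac fit called 6.26% of regions lower and 13.6% higher in early KO. The simulated shares are thus no estimate of what the fits could find in the data. Alternatives were other centring, pseudocount, filters, list lengths, a replicate block and leaving out each library.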

Additional observations from a re-analysis of the deposited data

How the results depend on the processing

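The number of lost regions was 224 with the upper 50% of each H3K27ac list, of which 218 had an island in a whole late list, 297 where each early library had to cover at least 50% of the region, 880 with at least 3 of the 4 early libraries, and 466 to 676 when 1 library was left out. The early share with a DNase island was 12.9% with the upper 50% of each DNase list and 12.1% at equal lengths, with late shares of 2.0% and 3.2%.

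Counts of lost regions lower in DNase late, averaged over genotypes, in WT and in KO, were 32, 37 and 29. With no centring the average and KO counts were 69 and 45. They were 7, 0 and 2 with quantile normalization, 17, 21 and 4 with a pseudocount of 2 kb, and 20, 20 and 9 with equal list lengths. With no filter the average and KO counts were 14 and 12, and with the upper 50% of each list 17 and 2. Leaving out 1 library gave 0 to 72, 0 to 91 and 0 to 26. The count higher was 0 with no centring, the upper 50% or equal lengths, and 0 to 1 without 1 library. Regions called between genotypes, early and late, were 17 and 1: 35 and 16 with no centring, 2 and 0 with quantile normalization, 3 and 0 with a pseudocount of 2 kb, 7 and 0 with no filter, and 0 to 16 and 0 to 13 without 1 library. The interaction was called in 22 with no centring, 19 with the upper 50%, 5 with equal lengths and 0 whichever library was left out.

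Early H3K27ac was lower in KO in 15 regions: 30 with quantile normalization, 54 with equal list lengths, 29 with all 8 H3K27ac libraries in 1 fit, and 0 to 23 without 1 library. It was higher in 1: 2 with no centring or no filter, 3 with all 8 libraries, and 0 to 3 without 1 library.

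With a replicate block the counts were 14, 19 and 11 lower in DNase late, 0 higher, 0 and 0 between genotypes, and 7 lower and 0 higher in early H3K27ac. Deviations of same-numbered libraries correlated at -0.005 to 0.093 in DNase and -0.031 in early H3K27ac, so no shared deviation was seen. With 2 libraries per group, this cannot show whether same-numbered samples came from the same animal or culture. The cause of these changes was not tested. Without a replicate, the lone sample of a group was assumed to vary like the others. Depth is unknown, so weak islands missing from a list cannot be told apart from lost ones.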

Other observations

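At equal list lengths, 496 regions had an island in all 4 early and no late H3K27ac list, 282 of them overlapping the 458 lost regions. The other 214 had an island in at least 1 whole late list. A DNase island was present in 54.5% of the 496 early and 15.7% late (means of 4 libraries). Of the regions lost from the upper 50% of each list, 6 overlapped the lost regions, and 82.0% early and 45.5% late had a DNase island.

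The share of each DNase list's own length that lay in the 458 lost regions was 0.514% and 0.536% in early WT, 0.35% and 0.524% in early KO, 0.129% and 0.208% in late WT and 0.071% and 0.113% in late KO. Every early library was above every late one on this scale, which divides by the list's length. DNase islands in the flanks of the lost regions covered 4.65, 6.83, 3.05 and 5.08 kb early and 4.00, 4.51, 2.19 and 2.28 kb late (WT replicates 1 and 2, KO replicates 1 and 2), and these ranges overlapped.

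The 4 regions with late DNase islands only, chosen after their values were seen, each had an island in late WT replicate 2, of 0.8 to 1.2 kb, and 1 of them also in late KO replicate 2.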
